A study of Arabidopsis thaliana with 12 samples.

Results

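The transcripts of 4 unrelated metabolic enzymes of Arabidopsis thaliana, each read by 1 probe that names no other gene, were measured in total RNA on 12 arrays: the cyanase CYN (AT3G23490), the LpxA acyltransferase (AT4G29540), the cystathionine beta-lyase CBL (AT3G57050) and the glucosyltransferase UGT74D1 (AT2G31750). These 4 genes are among 691 that a probe names alone (692 such probes of 3439 on the array). They were chosen because their recovered and control values differ in a contrasting way, CYN and LpxA being bright and higher as deposited, CBL and UGT74D1 being dim and higher only relative to the other probes of an array. The levels of the 4 genes are therefore given as a description, without a test.

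All plants were wild type of the ecotype Columbia 0. The 6 control samples came from plants kept at 20 °C in medium light. The 6 recovered samples came from plants chilled to 4 °C for 24 h in medium light, which the labels call photoinhibitory, and then returned to 20 °C in that light for another 24 h. The sources used here give no tissue, plant age or origin of the replicates, so the spread between samples may be technical, and the series holds no chilled plants without recovery. In bulk RNA, fewer cells of a type and less RNA per cell cannot be told apart.

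Cyanase decomposes cyanate, a toxic product of urea breakdown and cyanide oxidation, with bicarbonate into ammonia and carbon dioxide. LpxA in Escherichia coli adds the first acyl chain to UDP-N-acetylglucosamine in the synthesis of lipid A, the membrane anchor of bacterial lipopolysaccharide, and Arabidopsis keeps homologues of most enzymes of that pathway. CBL cleaves cystathionine to homocysteine, pyruvate and ammonia in the plastid, the step before homocysteine is methylated to methionine. It is not one of the calcineurin B-like calcium sensors that carry the same abbreviation. UGT74D1 belongs to the plant family 1 glycosyltransferases, which transfer glucose from UDP-glucose to small molecules, and acts on auxins. The gene table lists 3 RefSeq transcripts for CYN, 4 for LpxA, 5 for CBL and 2 for UGT74D1, and the annotation does not say which of them a probe reads.

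The arrays of the groups differed as a whole, which bears on each value below. The median spot of the 6 control arrays lay at 0.556 ± 0.0159 (SD) and that of the 6 recovered arrays at 0.108 ± 0.0142, in the arbitrary units of the deposited table, which run from 0 to 100. Set percentile against percentile, the mean intensity of recovered arrays exceeded that of control arrays from the 95th percentile upward and lay below it at the 94th, at 2.34 against 2.49. Of the 2409 probes above 0 on every array, 358, or 14.9%, had a higher mean log2 intensity after recovery as deposited. The median log2 difference of these probes, recovered minus control, was -1.58 as deposited and 0.08 after quantile normalization, which gives every array the same distribution of values. Each gene is for this reason given both as its deposited intensity and as its place on the array, the percentage of the 3439 probes that lay below it.

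CYN was the brightest of the 4 genes and the most even among control samples. Its deposited intensity was 2.21, 2.14, 2.21, 2.05, 2.25 and 2.24 in control samples 1 to 6 and 3.95, 4.34, 5.06, 5.31, 5.70 and 5.84 in recovered samples 1 to 6. All 6 recovered values lay above all 6 control values. The means were 2.18 ± 0.0775 in control and 5.03 ± 0.753 in recovered plants (SD, n = 6 each), a ratio of 2.31. The control samples varied by 3.55% of their mean and the recovered samples by 15.0%, where the median probe of its decile, the brightest of 10 by geometric mean over the 12 samples, varied by 10.8% and 11.9%. CYN was thus more even than that median in control samples and less even in recovered samples. Recovered samples 1 and 2 held the lowest recovered values and samples 5 and 6 the highest.

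On the array, CYN lay above 92.6% ± 0.550 of the probes in control and 96.9% ± 0.495 in recovered samples. A probe that kept the control place of CYN would have had an intensity of 1.76 ± 0.0629 on the recovered arrays, against the 5.03 measured. The log2 difference, recovered minus control, was 1.19 (SE 0.111) as deposited and 1.16 (SE 0.107) after quantile normalization. The deposited and quantile-normalized differences of CYN were thus nearly equal. As deposited, CYN held place 52 among 2409 tested probes, ordered from the largest increase, and place 4 among the 466 that name a single gene of the gene table. After quantile normalization it held place 437 and place 75 in the same order.

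LpxA was also higher in each recovered sample than in any control sample, with a smaller gap. The deposited intensity of LpxA was 1.09, 1.12, 0.760, 0.826, 0.873 and 0.940 in control samples 1 to 6 and 1.35, 1.65, 1.18, 1.28, 1.34 and 1.36 in recovered samples 1 to 6. Control samples 1 and 2 lay above the other 4, and the lowest recovered value (1.18, sample 3) lay close to the highest control value (1.12, sample 2). The means were 0.935 ± 0.145 and 1.36 ± 0.155 (SD, n = 6 each), a ratio of 1.45.

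LpxA also took a higher place on the recovered arrays. It lay above 71.9% ± 6.12 of the probes in control and 91.2% ± 0.587 in recovered samples. A probe that kept the control place would have had an intensity of 0.259 ± 0.0189 on the recovered arrays. The log2 difference of LpxA was 0.55 (SE 0.124) as deposited and 1.61 (SE 0.155) after quantile normalization, so the scaling that left CYN almost where it was moved LpxA by more than the size of its deposited difference. LpxA held place 177 as deposited and place 223 after quantile normalization among the 2409 probes.

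**Figure D1:**
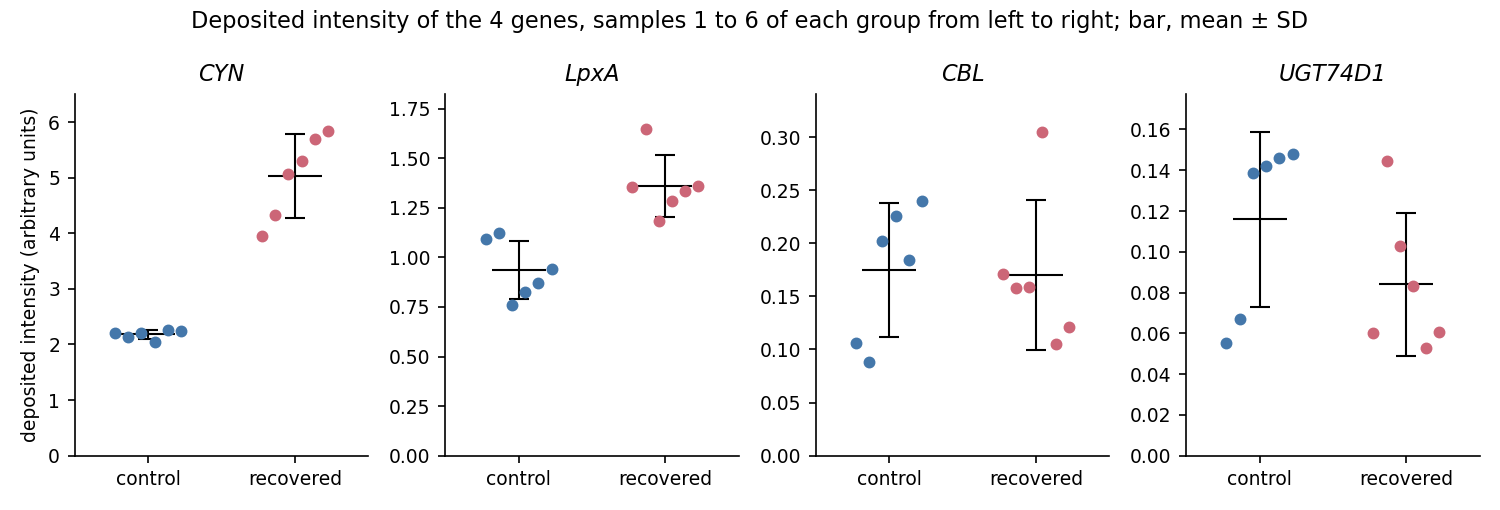
Deposited intensity (arbitrary units, linear axes from 0, a scale for each gene) of CYN, LpxA, CBL and UGT74D1 in the 6 control and 6 recovered samples, with points for samples 1 to 6 from left to right and bars for the mean ± SD. The groups are apart for CYN and LpxA and overlap for CBL and UGT74D1, where control samples 1 and 2 lie below the other control samples.

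The dim probes behaved otherwise. The deposited intensity of CBL was 0.106, 0.0882, 0.203, 0.225, 0.185 and 0.240 in control samples 1 to 6 and 0.171, 0.158, 0.159, 0.305, 0.105 and 0.122 in recovered samples 1 to 6. The groups overlapped over most of their range, and recovered sample 4 alone lay above all control samples. The means were 0.174 ± 0.0630 and 0.170 ± 0.0707 (SD, n = 6 each), a ratio of 0.974. The samples varied by 36.1% of their mean in control and by 41.6% in recovered plants. That control figure compares with a median of 15.9% among the 241 tested probes of its decile of brightness, the dimmest but one, and the recovered figure with 47.7%.

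The place of CBL on the array did not overlap between the groups. CBL lay above 8.43% to 18.3% of the probes in control samples, with a median of 14.1%, and above 52.0% to 75.5% in recovered samples, with a median of 58.8%. A probe that kept the control place would have stood at 0.00512 ± 0.00402 on the recovered arrays, and at 0 on some of them. The log2 difference of CBL was -0.03 (SE 0.307) as deposited and 2.30 (SE 0.262) after quantile normalization. Among the 466 single-gene probes it held place 50 and place 10 in the same order of scalings.

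UGT74D1 was the dimmest of the 4. Its deposited intensity was 0.0551, 0.0670, 0.139, 0.142, 0.146 and 0.148 in control samples 1 to 6 and 0.0603, 0.145, 0.103, 0.0833, 0.0529 and 0.0605 in recovered samples 1 to 6. No recovered sample lay above all control samples, and recovered sample 5 lay below them all. The means were 0.116 ± 0.0429 in control and 0.0841 ± 0.0350 in recovered plants (SD, n = 6 each), a ratio of 0.725. The difference between these means was smaller than the SD of the control samples.

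In place on the array the order turned. UGT74D1 lay above 6.40% to 10.5% of the probes in control samples, with a median of 10.02%, and above 29.2% to 54.6% in recovered samples, with a median of 40.3%. A probe at its control place would have stood at 0 on all 6 recovered arrays, which held 388 to 564 zeros each against 154 to 162 on control arrays. The log2 difference of UGT74D1 was -0.45 (SE 0.326) as deposited and 2.40 (SE 0.318) after quantile normalization, and among single-gene probes its place went from 94 as deposited to 8.

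**Figure D2:**
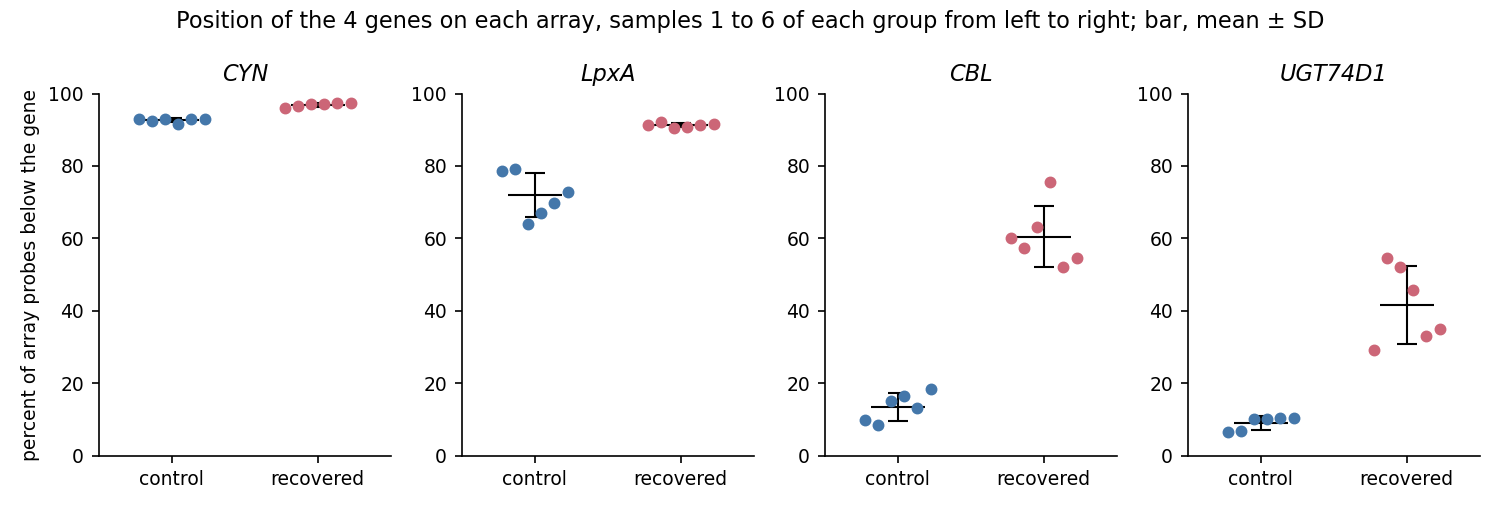
Percentage of the 3439 probes of an array that lay below CYN, LpxA, CBL and UGT74D1 (axes from 0 to 100) in the 6 control and 6 recovered samples, with points for samples 1 to 6 from left to right and bars for the mean ± SD. Recovered samples lie above control samples for all 4 genes, by least for CYN (96.9% against 92.6%) and by most for CBL (60.5% against 13.5%).

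Set side by side, 2 of the 4 genes, CYN and LpxA, were higher in every recovered sample than in every control sample as deposited, as were 7.35% of the 2409 tested probes. In place on the array 4 of 4 were, as were 34.9% of tested probes. CBL and UGT74D1 were apart in place but not in intensity, as were 29.0% of tested probes. These genes were chosen on this contrast, so nothing is read from their counts. For the whole table, limma called 9.88% of probes higher and 75.5% lower as deposited, and 37.5% higher and 31.1% lower after quantile normalization (adjusted p under 0.05). A positive quantile-normalized difference beside a deposited difference at or below 0, the pattern of CBL and UGT74D1, was found for 38.9% of tested probes. A difference above 0 as deposited, after quantile normalization, after median centring (each array set to the same median) and after cyclic loess (differences between arrays that depend on brightness removed), the pattern of CYN and LpxA, was found for 12.7%.

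The deposited difference of a probe went with its brightness. The tested probes were split into deciles by their geometric mean intensity over all 12 samples. The median log2 difference as deposited was -2.53 in the dimmest decile, which holds UGT74D1, and -2.49 in the second, which holds CBL. It was -0.32 in the ninth decile, which holds LpxA, and 0.42 in the brightest, which holds CYN. All 4 genes lay above the median of their own decile. That follows largely from their choice for higher values, so nothing is read from it or from their places within the decile. As deposited, UGT74D1 held place 15 and CBL place 7 among the 241 probes of their deciles, and LpxA held place 35 and CYN place 44 of 241. After quantile normalization these places within the decile were 16, 8, 29 and 29 in the same order. The deposited differences of CBL (-0.03) and UGT74D1 (-0.45) lay below 0, as did those of most probes in their deciles. There 2.49% and 3.32% of probes lay above 0.

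**Figure D3:**
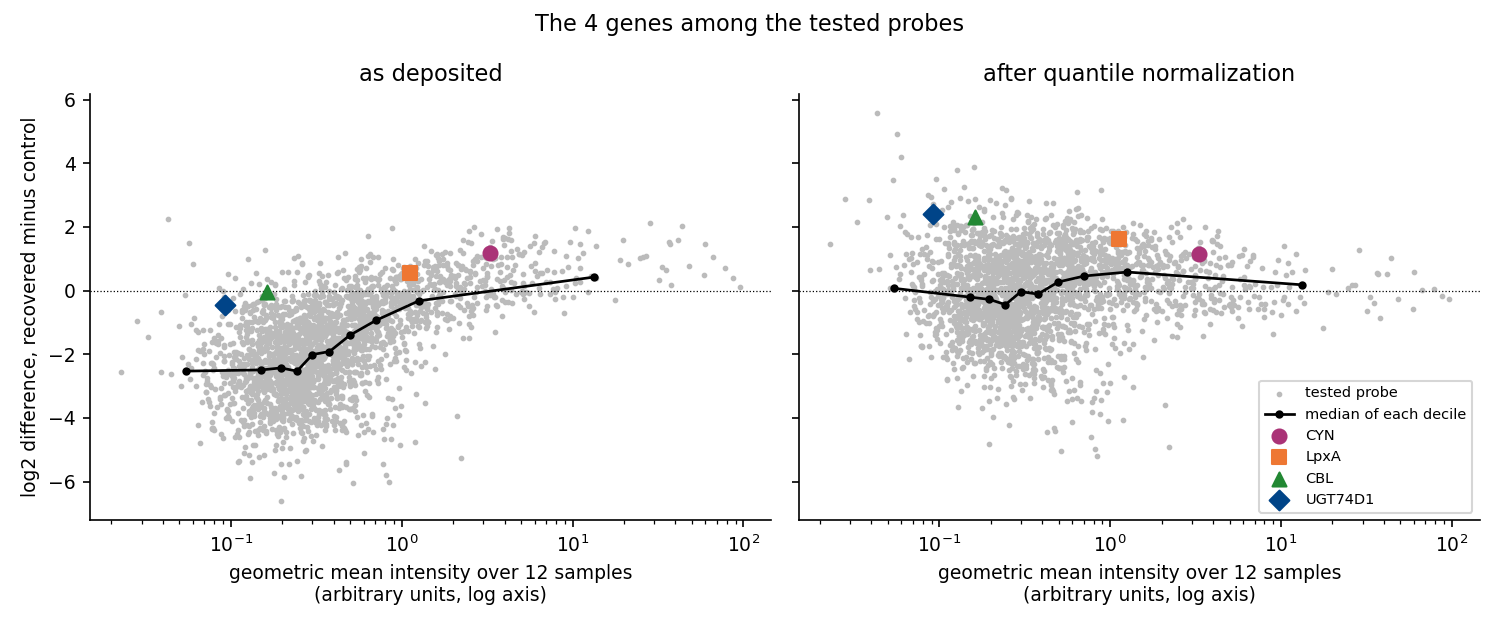
Log2 difference, recovered minus control, of the 2409 tested probes as deposited (left) and after quantile normalization (right) against the geometric mean intensity over 12 samples (arbitrary units, log axis). The line joins the median of each decile, which runs from -2.53 to 0.42 on the left. The 4 genes lie above it in both panels, which follows largely from their choice.

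The size of the difference between CYN and LpxA and between CBL and UGT74D1 depended on the scale. Median centring, under which the median tested probe lay at 0.35, gave log2 differences of 3.12 (SE 0.147) for CYN and 2.48 (SE 0.126) for LpxA. The same scaling gave 1.90 (SE 0.307) for CBL and 1.48 (SE 0.315) for UGT74D1. Bright genes thus led under median centring, as they did as deposited. Cyclic loess, under which it lay at -0.07, gave 0.83 (SE 0.115) for CYN, 0.99 (SE 0.119) for LpxA, 2.24 (SE 0.302) for CBL and 1.64 (SE 0.306) for UGT74D1. Dim genes led there, as they did after quantile normalization. With the difference between the groups' mean medians, 0.447, added to all recovered values and no further scaling, the log2 differences were 1.32 for CYN, 0.96 for LpxA, 1.91 for CBL and 2.30 for UGT74D1. That constant is larger than every deposited value of CBL and UGT74D1 (highest 0.305), so a higher value of both was fixed there in advance. Adding it could also only raise CYN and LpxA, which were above 0 as deposited. No background value of the arrays was given, and its part in these differences was not tested.

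**Figure D4:**
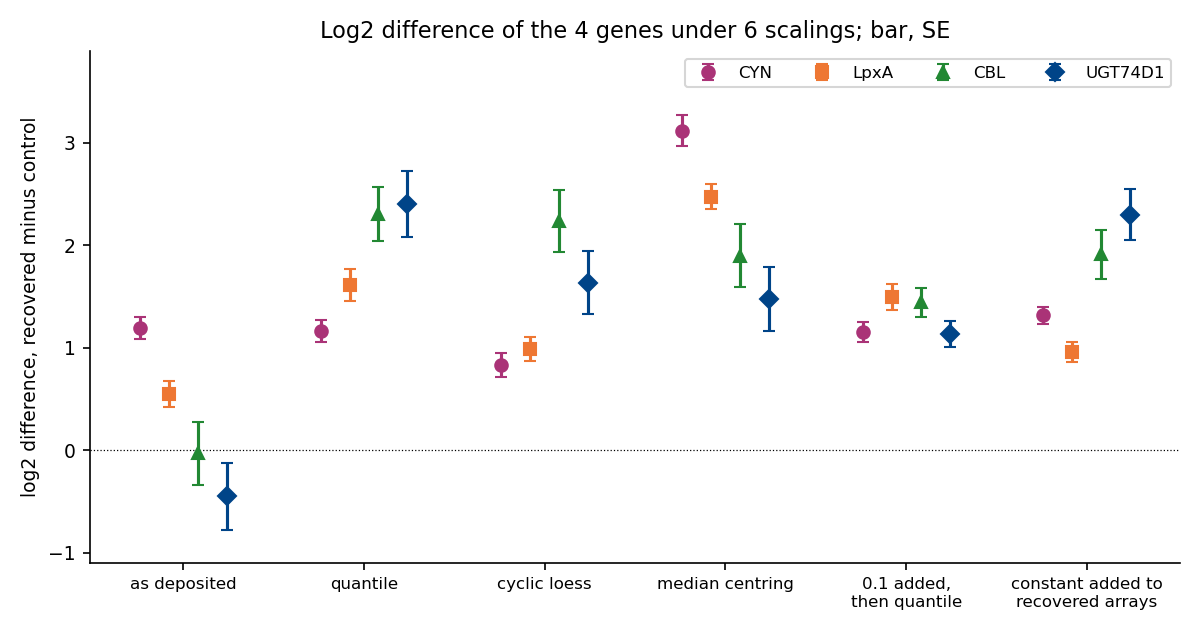
Log2 difference, recovered minus control (points, with SE), of CYN, LpxA, CBL and UGT74D1 under 6 scalings of the same 12 arrays. CYN and LpxA lie above 0 under each, while CBL (-0.03) and UGT74D1 (-0.45) lie below 0 as deposited and above 0 otherwise.

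Within groups, neighbouring sample numbers went together in the control plants, and more weakly in the recovered plants. Across all tested probes the deviations from the group mean correlated at 0.813 to 0.927 between control samples 1 and 2, 3 and 4, and 5 and 6, and at -0.665 to -0.112 between other control samples. Probes are not independent, and no label says that these samples share a plant or a slide. In control samples 1 and 2, CBL and UGT74D1 both lay below the other 4 control samples, as did 23.6% of tested probes, while LpxA lay above them, as did 21.9%. The mean of control samples 1 and 2 was 0.0972 for CBL, against 0.214 for samples 3 and 4 and 0.212 for samples 5 and 6. For UGT74D1 the same means were 0.0610, 0.140 and 0.147, and for CYN they were 2.17, 2.13 and 2.25. CYN alone of the 4 thus kept control samples 1 and 2 within the range of the others. In recovered plants the same correlations were -0.115 to 0.00921 within such pairs and -0.279 to -0.187 otherwise. Deviations from a shared mean correlate below 0 on average, and each recovered pair lay above all other recovered samples. Zeros numbered 416 and 409, 564 and 556, and 388 and 392 in these pairs. There UGT74D1 differed by 1.26 on the log2 scale between samples 1 and 2 and CBL by 0.94 between samples 3 and 4. The largest such gap was 0.134 for CYN and 0.283 for LpxA. Pair means spanned 0.480 for CYN, 0.277 for LpxA, 0.959 for CBL and 0.723 for UGT74D1.

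Without control samples 1 and 2 the quantile-normalized log2 differences were 1.23 for CYN, 1.94 for LpxA, 2.01 for CBL and 2.02 for UGT74D1. No sample or pair left out turned the sign of any of the 4 genes after quantile normalization. Their groups did not overlap on that scale, so a turn could hardly occur, and nothing is read from this. The SEs given above treat the 6 samples of a group as independent. With consecutive samples averaged, the quantile-normalized SE was 0.183 for CYN, 0.238 for LpxA, 0.339 for CBL and 0.396 for UGT74D1. In that fit 693 probes were called higher and 568 lower, against 903 and 750 in the main fit.

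The pathways around the 4 enzymes were scarcely measured by probes that name 1 gene. The lists covered sulfur assimilation and cysteine synthesis, methionine synthesis and its cycle, cyanate, cyanide, bicarbonate and urea metabolism, lipid A and KDO synthesis, and family 1 glucosyltransferases. Of their 105 genes, 2 had such a probe and 1 of these was above 0 on every array. That gene was APS4 (AT5G43780), an ATP sulfurylase, which activates sulfate at the entry to the cysteine and methionine route that includes CBL. Control plants had a deposited APS4 intensity of 0.418 ± 0.0387 and recovered plants one of 0.226 ± 0.0218 (SD, n = 6 each), without overlap. As deposited it was called lower, as were 75.5% of tested probes, with a log2 difference of -0.88 (SE 0.103, limma adjusted p = 4.83e-06). After quantile normalization it was called higher, as were 37.5%, with a log2 difference of 1.12 (SE 0.115, limma adjusted p = 2.89e-06). These fits called 439 of the 2409 tested probes in opposite directions, so the turn is not particular to APS4. APS4 lay above 37.4% ± 4.46 of probes in control and 69.2% ± 2.45 in recovered samples. Its place therefore moved upward like that of CBL while its intensity was lower.

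The second gene, CKS (AT1G53000), makes the activated form of KDO, a sugar that in bacteria joins lipid A to the rest of the lipopolysaccharide. Its intensity lay between 0.0533 and 0.0938 on the 6 control arrays. On the recovered arrays it was 0.0344 in sample 1 and listed at 0 in the other 5. As deposited CKS was thus lower and LpxA higher after recovery, but the difference of CKS depended on the scale. Its log2 difference was 0.06 (SE 0.132, limma adjusted p = 0.724) with 0.1 added before quantile normalization. With the constant 0.447 added to recovered values it was 2.61 (SE 0.115, limma adjusted p = 9.80e-10). That constant exceeds every control value of CKS, so a higher value was fixed there in advance, and no direction is read from it. Both fits kept probes with zeros. In the lists on methionine, cyanate and glucosyltransferases, which do not hold CBL, CYN and UGT74D1 themselves, 0 genes were read by a probe of their own.

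The genes whose pattern was most like each of the 4 were sought among the other 465 single-gene probes by Pearson correlation of quantile-normalized log2 intensity over the 12 samples. These correlations share the difference between the groups and the arrays, and they are given as a description. Nearest to CYN were AT3G57440 (r = 0.984) and AT1G68660 (r = 0.982), and nearest to LpxA were AT4G27390 (r = 0.991) and AT1G62250 (r = 0.991). Nearest to CBL were AT2G29180 (r = 0.976) and AT2G04700 (r = 0.967), and nearest to UGT74D1 were AT2G04700 (r = 0.981) and AT2G38950 (r = 0.978). AT2G04700 was thus near to both dim genes. When each group's mean was taken away first, r was 0.652 and 0.577 for the genes near CYN, 0.902 and 0.883 for those near LpxA, 0.821 and 0.741 for those near CBL, and 0.886 and 0.880 for those near UGT74D1. Control samples 1 and 2 lay apart from the other controls in LpxA, CBL, UGT74D1 and the genes near them. They did not in CYN or the genes near it. Many tested probes share that split (23.6% below, 21.9% above), and its part in these r was not tested.

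The genes near LpxA were higher as deposited too, and those near the dim genes were not. AT1G62250 had an intensity of 3.54 ± 0.388 in control and 9.91 ± 0.157 in recovered plants, and AT4G27390 had 1.49 ± 0.177 and 2.36 ± 0.141. The groups did not overlap for either gene. For AT3G57440 and AT1G68660, the genes nearest to CYN, the deposited groups overlapped, with ratios of 1.11 and 1.09 against the 2.31 of CYN. AT2G29180 and AT2G04700, the genes nearest to CBL, had ratios of 0.733 and 0.750 against the 0.974 of CBL. AT2G04700 and AT2G38950 (ratio 0.720), the genes nearest to UGT74D1, lay near its 0.725. The likeness to CYN thus held for quantile-normalized values and not for the deposited sizes. The deposited sizes also differed for both genes near CBL. Near LpxA (ratio 1.45), AT1G62250 had a ratio of 2.80 and AT4G27390 one of 1.59.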

How the data were processed

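Per the file, the deposited table holds 1 intensity per probe and array on a linear scale from 0 to 100. The background correction, scaling and flooring behind these deposited intensities are not stated in any source used here, and the number of arrays limits the precision. Samples were grouped by the labels. Zeros made up 8.89% of values. The test therefore kept the 2409 probes above 0 on every array, dropping 1030. Their log2 intensities were quantile normalized, and recovered was compared with control, as recovered minus control, with limma 3.58.1 in R 4.3.3 (two-sided, Benjamini-Hochberg adjustment, threshold 0.05). The test was tested on simulated data. These held independent samples, the control SD of each probe in both groups and no shift of whole arrays. They did not cover samples that go together or the larger spread of recovered samples. Plots were drawn with matplotlib 3.10.9.

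Probe names come from GEO's platform annotation, updated through the TAIR10.1 gene table, where 690 of 692 identifiers matched and 466 of these were tested. The 4 genes and the lists were chosen with earlier results of these data known. Named are the 4 genes, for each the 2 single-gene probes most correlated with it, and every list gene with a single-gene probe. Alternatives were other scalings, an offset of 0.1, the handling of zeros, a filter on the dimmer 50% of probes, averaging of consecutive samples, the replicate number as a block, and leaving out samples or pairs.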

Additional observations from a re-analysis of the deposited data

Results flagged for a closer look

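Among 26 groups of 6 samples, 3 had 1 value far from the rest, and chance alone would give about 1.3 among independent samples. CBL stood at 0.305 in recovered sample 4, with its other recovered values from 0.105 to 0.171. Without that sample the quantile-normalized log2 difference of CBL was 2.09. APS4 stood at 0.184 in recovered sample 6, with its other recovered values from 0.227 to 0.247. CKS stood at 0.0344 in recovered sample 1 and was listed at 0 in the other recovered samples. Any value above 0 would have stood apart there, so the chance figure of 1.3 does not hold for that group.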

How the results depend on the processing

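The constant added to recovered arrays and the leaving out of pairs were chosen after the data were seen. Against 1653 probes called (903 higher, 750 lower), there were 238 higher and 1819 lower as deposited, 948 (532 and 416) without the dimmer 50% of probes, of which fewer were tested, and 2735 (1816 higher) with the constant, a setting that also tested 3439 probes, those with zeros included, without quantile normalization. The 1 list gene called (1 higher, 0 lower) became 0 higher and 1 lower as deposited, 0 without the dimmer 50%, where it was not tested, and 2, both higher, with the constant, where CKS was tested although it holds zeros. The call of CKS was fixed there in advance, since the constant exceeds all its control values. The direction of APS4 was fixed there too, since the constant exceeds its control mean of 0.418.

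CYN (1.16 after quantile normalization) was at 3.12 after median centring, 0.83 after cyclic loess and 1.32 with the constant. LpxA (1.61) was at 0.55 as deposited, 2.48 after median centring, 0.99 after cyclic loess, 0.96 with the constant and 1.94 without control samples 1 and 2. CBL (2.30) turned to -0.030 as deposited and was at 1.44 with 0.1 added and 4.82 with zeros at the smallest positive value. UGT74D1 (2.40) turned to -0.45 as deposited and was at 1.48 after median centring, 1.64 after cyclic loess, 1.13 with 0.1 added and 6.42 with zeros at the smallest positive value. As deposited, APS4 (-0.88), AT2G29180 (-0.39), AT2G04700 (-0.38) and AT2G38950 (-0.37) also changed sign. The cause was not tested. The filter left no value for CBL and UGT74D1, which are among the dimmer probes.

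Leaving out 1 sample gave 1578 to 1637 calls and log2 differences of 1.10 to 1.21 for CYN, 1.53 to 1.75 for LpxA, 2.09 to 2.46 for CBL and 2.23 to 2.58 for UGT74D1. Same-numbered samples of both groups were not treated as pairs, since no label says that they are. Their deviations correlated at -0.0256 to 0.102, and 5 of 12 samples correlated best with their own number, which does not decide whether they are pairs. Fitting the replicate block gave 878 probes higher and 746 lower, and APS4 stayed called (limma adjusted p = 0.000315, from 4.34e-07 to 0.00282 over its alternatives). The highest of these came with consecutive samples averaged. The lowest came with the constant, where a higher value was fixed in advance. The alternatives also include the deposited fit, which called APS4 lower and not higher.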
